A study of Mus musculus with 2 samples.

Results

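The nuclei described here were dopaminergic neurons of Sox6 type from the ventral tegmental area (VTA) of adult mice, 556 of 1097 dopaminergic nuclei in 2 single-nucleus RNA libraries. The CCI library came from mice with chronic constriction injury, in which the left sciatic nerve was constricted to induce neuropathic pain and the right one exposed without ligation. The WT library came from wild-type mice. Each group had 1 library, so no difference between CCI and WT has a replicate check. The labels do not say how many animals were pooled, which hemisphere was taken, the strain, the sex, the exact age or the time after surgery, nor whether the WT mice had an operation; they name an adult brain dissociation kit and 10x Genomics 3' chemistry for both libraries.

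Members were chosen from the unique molecular identifier (UMI) counts of each barcode. A barcode had at least 500 UMIs. At least 1% of its UMIs came from the neuronal genes Snap25, Syt1, Meg3, Snhg11, Rbfox3 and Nefl together. At least 3 UMIs and 0.1% came from Slc6a3, Slc18a2, Ddc and Th together, with at least 1 UMI of Slc6a3 or Th. Its Sox6 UMIs then had to exceed the sum of Calb1, Otx2 and Slc17a6. The CCI library gave 215 Sox6-type nuclei among 400 dopaminergic nuclei and 7335 neurons, and the WT library gave 341 among 697 dopaminergic nuclei and 6719 neurons. The other 185 CCI and 356 WT dopaminergic nuclei were the comparison within each library.

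Dopaminergic neurons make dopamine from tyrosine through tyrosine hydroxylase (Th) and Ddc, load it into vesicles with Slc18a2 and take it back up with the transporter Slc6a3. In the mouse midbrain, the transcription factor Sox6 marks mainly ventral and lateral dopaminergic neurons, many of them in the substantia nigra, whereas Calb1, Otx2 and the vesicular glutamate transporter Slc17a6 mark mainly dorsal and medial ones, many of them in the VTA. Sox6-positive neurons are known for the retinaldehyde dehydrogenase Aldh1a1 in part of their number, for strong pacemaker and autoreceptor currents, and for loss in Parkinson disease.

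The genes of the rule describe the selection and carry no test. Levels are given as CPM, the UMIs of a gene per 1000000 UMIs, both summed over the nuclei of a class in a library. Sox6 (mm10 chromosome 7, 115470872 to 116038796, minus strand) had 607 CPM in CCI and 855 CPM in WT Sox6-type nuclei, against 25.3 and 28.7 CPM in the other dopaminergic nuclei of CCI and WT. In oligodendrocyte nuclei Sox6 stood above those others, at 68.0 CPM in CCI and 133 CPM in WT. Exactly 1 Sox6 UMI was held by 17 of 215 CCI and 131 of 341 WT Sox6-type nuclei. The part of oligodendrocyte RNA in membership was not tested. Calb1 had 28.8 CPM in CCI and 10.1 CPM in WT Sox6-type nuclei, against 165 CPM in CCI and 105 CPM in WT other dopaminergic nuclei. Slc6a3 had 681 CPM in CCI and 781 CPM in WT Sox6-type nuclei, against 25.4 and 53.0 CPM in oligodendrocyte nuclei of the same libraries. Th had 147 CPM in CCI and 165 CPM in WT Sox6-type nuclei, against 3.92 and 11.6 CPM in oligodendrocyte nuclei.

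Midbrain dopaminergic transcription factors that the rule did not use were also present. En1, which maintains these neurons, had 100 CPM in CCI and 88.1 CPM in WT Sox6-type nuclei, against 2.65 and 10.7 CPM in neurons outside the dopaminergic rule. Nr4a2, required for the dopaminergic phenotype, had 138 CPM in CCI and 165 CPM in WT Sox6-type nuclei, against 15.9 and 23.5 CPM in those neurons. Gad1 and Slc32a1 of GABAergic neurons, Slc17a7 of glutamatergic neurons and Tph2 of serotonergic neurons were each at or under 10 CPM in the Sox6-type nuclei of both libraries. With Gad2, the 3 GABAergic markers summed to 22.8 CPM in CCI and 23.3 CPM in WT Sox6-type nuclei. A Gad2 UMI was present in 21 of 215 CCI and 7 of 341 WT Sox6-type nuclei.

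Depth differed between the libraries and moved with the selection. Sox6-type nuclei had a median of 10638 UMIs in CCI and 2751 UMIs in WT, and the other dopaminergic nuclei had 7897 UMIs in CCI and 2217 UMIs in WT. In all, 2497592 CCI and 987559 WT UMIs came from Sox6-type nuclei. A tie counted as not Sox6-type, and 56 CCI and 250 WT dopaminergic nuclei tied with no UMI of any of the 4 genes, so most of the other WT nuclei were undecided. Just inside the Sox6 limit, with a margin of 1 UMI, lay 29 CCI and 135 WT nuclei; just outside it, with equal UMIs, lay 68 CCI and 267 WT nuclei. At the dopaminergic limit, 0 CCI and 12 WT Sox6-type nuclei had exactly 3 UMIs, and 0 CCI and 16 WT neurons that met the Sox6 limit had 2. Scrublet, a doublet caller, marked 13.0% of CCI and 12.6% of WT Sox6-type nuclei, which were kept. The libraries shared 54 barcodes, among them 0 CCI and 1 WT Sox6-type nuclei.

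Oligodendrocyte RNA was present in all 4 sums. The 7 oligodendrocyte markers summed to 326 CPM in CCI Sox6-type and 366 CPM in other CCI dopaminergic nuclei, and to 1070 CPM in WT Sox6-type and 1199.5 CPM in other WT dopaminergic nuclei. Their part in the comparisons between classes was not tested. Of the markers, Mbp was called lower by edgeR in Sox6-type nuclei (-0.47), but not by DESeq2 or with doublets left out (edgeR, adjusted p = 0.196), and the list's median was -0.29. In nuclei without a UMI of Pdgfra, Cspg4, Olig1, Olig2, Sox10 or Mog, Mbp had -0.67, and edgeR called 312 genes higher and 391 lower, of which 289 and 365 were among the calls over all nuclei.

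Sox6-type nuclei made up 53.8% of dopaminergic nuclei in CCI (95% Clopper-Pearson interval 48.7 to 58.7%) and 48.9% in WT (45.2 to 52.7%). These intervals, like all others given here, cover counting error only. When every barcode was first thinned to 1000 UMIs and the rule applied to what remained, Sox6-type nuclei were 26.4% of 148 CCI (19.5 to 34.2%) and 29.5% of 352 WT dopaminergic nuclei (24.8 to 34.6%). Among nuclei in which the 2 sides of the Sox6 rule differed, Sox6-type nuclei were 64.8% of 332 in CCI and 79.3% of 430 in WT. The order of the libraries thus depended on how undecided nuclei and depth were treated.

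Outside the rule, Sox6-type nuclei differed from the other dopaminergic nuclei in genes of ion channels, receptors, adhesion and axon guidance, mostly with the same direction in both libraries. UMI sums of the 2 classes in each library were fitted with edgeR's quasi-likelihood test, with the library as a block, and adjusted by Benjamini-Hochberg over 8983 genes. Of these, 356 (3.96%) were higher and 452 (5.03%) lower in Sox6-type nuclei at an adjusted p under 0.05, 8.99% in either direction. The same sign in both libraries was found for 801 of the 808. The calls were made on both libraries together, so this count is no independent check. At least 2-fold differences numbered 91 higher and 156 lower. The fit had 1 residual degree of freedom against 898 prior ones, so its SEs and p-values rest on a spread estimated over all genes and hardly reflect how far a gene's own 2 library ratios lie apart; the animals behind the libraries are not described. The 95% counting intervals lay beyond 0 on the called side in both libraries for 514 of the 808 genes, and for 104 the intervals of the 2 libraries did not overlap each other. DESeq2 called 60 higher and 85 lower, all 145 of them among the edgeR calls. Without the block, edgeR called 103 higher and 162 lower, and with every nucleus thinned to 1000 UMIs 45 higher and 59 lower.

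Among the 15 genes named as higher, Pex5l stood at high levels. Pex5l (chromosome 3, 32949408 to 33143247, minus strand) encodes TRIP8b, an auxiliary subunit that controls trafficking of HCN pacemaker channels. It had 2303 CPM in CCI Sox6-type and 494 CPM in other CCI dopaminergic nuclei, and 2372 CPM in WT Sox6-type and 1024 CPM in other WT dopaminergic nuclei. Both Sox6-type sums lay above both others. The log2 fold change was 1.76 ± 0.11 (SE of the edgeR fit; adjusted p = 1.12e-49), while the ratios of 2.22 in CCI and 1.21 in WT lay farther apart than this SE. The median nucleus held 22 Pex5l UMIs in CCI Sox6-type and 2 in other CCI nuclei, and 6 in WT Sox6-type and 1.5 in other WT nuclei. Exons of non-coding genes on the opposite strand overlap Pex5l, and whether reads were counted by strand is not given in the sources used here.

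Hs6st3 (chromosome 14, 119138341 to 119869815, plus strand), a heparan sulfate sulfotransferase, had 844 CPM in CCI Sox6-type and 253 CPM in other CCI nuclei, and 1031 CPM in WT Sox6-type and 458 CPM in other WT nuclei, log2 ratios of 1.74 in CCI and 1.17 in WT (adjusted p = 5.17e-38). Cntn5, a contactin adhesion molecule, had 1252 CPM in CCI Sox6-type and 523 CPM in other CCI nuclei, and 1421 CPM in WT Sox6-type and 648 CPM in other WT nuclei. Grin2c, an NMDA receptor subunit, was sparse, with 24.0 CPM in CCI Sox6-type and 3.61 CPM in other CCI nuclei, and 41.5 CPM in WT Sox6-type and 10.8 CPM in other WT nuclei. Nostrin, a regulator of nitric oxide synthase traffic, was sparse as well, with 88 UMIs in CCI Sox6-type and 15 in other CCI nuclei, and 24 in WT Sox6-type and 4 in other WT nuclei. The remaining higher genes were Gfpt2 of the hexosamine pathway, the clock-related transcription factor Npas2, Ltbp1, which binds latent TGF-beta, Ptchd1, the mitochondrial carrier Slc25a21, the sorting receptor Sorcs2, Vwc2, the ubiquitin ligase March3, the non-coding RNA Platr31 and Fam204a. Their log2 fold changes ran between 1.16 for Fam204a and 1.69 for Slc25a21. DESeq2 called 8 of the 15 higher genes, did not call Npas2, Ltbp1 and Platr31, and gave no adjusted p for the other 4.

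**Figure D1:**
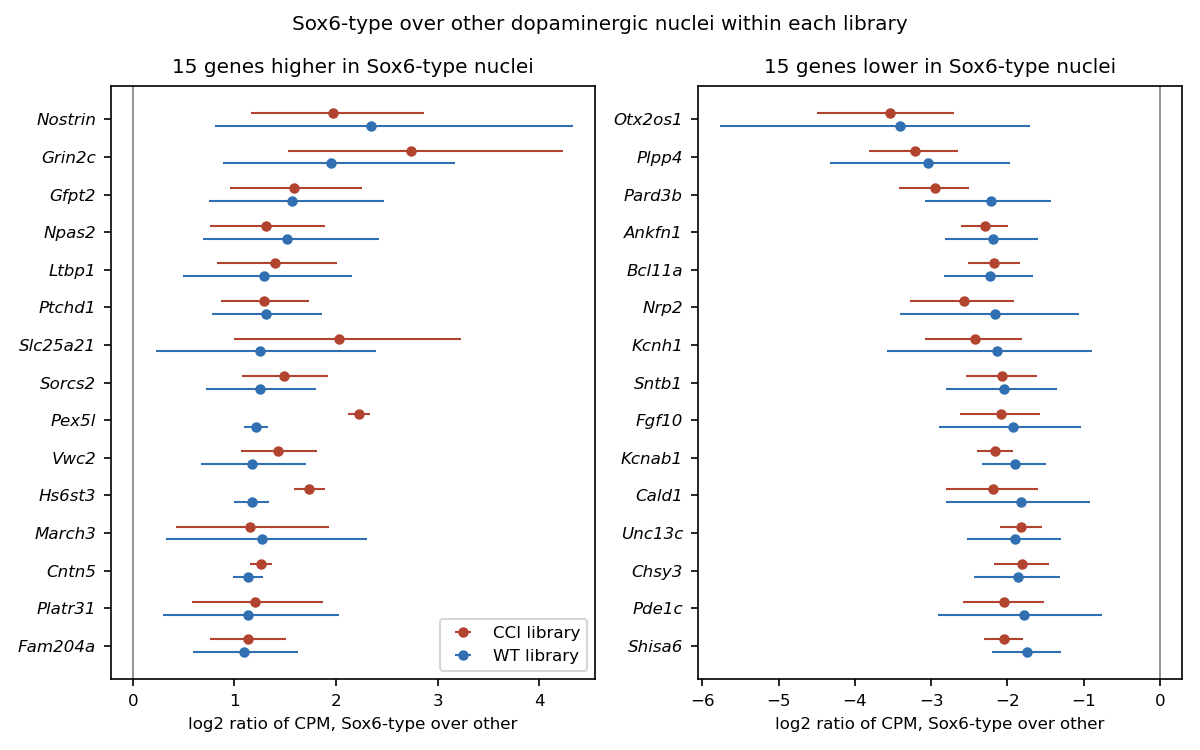
Log2 ratio of CPM in Sox6-type over other dopaminergic nuclei (x axis) for the 15 genes named as higher (left) and the 15 named as lower (right), in the CCI library (red) and the WT library (blue); points are ratios and bars 95% exact conditional intervals for counting error. All 30 genes lie on the same side of 0 in both libraries because naming required it. Pex5l has ratios of 2.22 in CCI and 1.21 in WT.

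The 15 genes named as lower had log2 fold changes between -3.45 and -1.79. Plpp4 (chromosome 7, 129257031 to 129391412, plus strand), a lipid phosphate phosphatase, had 30 UMIs in CCI Sox6-type and 185 in other CCI nuclei, and 8 UMIs in WT Sox6-type and 56 in other WT nuclei (log2 fold change -3.12 ± 0.22 SE, adjusted p = 1.02e-37). Otx2os1 had a log2 fold change of -3.45 ± 0.33 (SE), but its exons overlap those of Otx2, a gene of the rule, on the other strand, so reads of the pair cannot be told apart without strand. Kcnab1 (chromosome 3, 65109384 to 65378223, plus strand), a beta subunit that modulates potassium channels of the Shaker family, had 79.7 CPM in CCI Sox6-type and 356 CPM in other CCI nuclei, and 65.8 CPM in WT Sox6-type and 246 CPM in other WT nuclei. Shisa6, an auxiliary protein of AMPA receptors, had 67.7 CPM in CCI Sox6-type and 280 CPM in other CCI nuclei, and 57.7 CPM in WT Sox6-type and 194 CPM in other WT nuclei. For Kcnab1 and Shisa6 the Sox6-type sums were below both others, with log2 fold changes of -2.03 ± 0.12 and -1.91 ± 0.13 (SE).

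Several of the other lower genes have known roles in neurons. Bcl11a is a transcription factor of subsets of dopaminergic neurons, and had 38.4 CPM in CCI Sox6-type and 173 CPM in other CCI nuclei, and 32.4 CPM in WT Sox6-type and 152 CPM in other WT nuclei. Nrp2 is a co-receptor for semaphorins, Kcnh1 a voltage-gated potassium channel, Fgf10 a secreted growth factor, Unc13c a vesicle priming protein and Pde1c a calmodulin-dependent phosphodiesterase. Pard3b acts in cell polarity, Sntb1 is a syntrophin of the dystrophin complex, Cald1 binds actin and Chsy3 makes chondroitin chains. With Ankfn1 and Bcl11a, these 11 genes had log2 fold changes between -2.72 for Pard3b and -1.79 for Chsy3 (adjusted p of 3.44e-13 or less). DESeq2 called all 15 lower genes.

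Levels by Sox6 margin, the Sox6 UMIs minus those of Calb1, Otx2 and Slc17a6, are given as a description that supports nothing, since the margin uses the rule's own UMIs and these genes were named for differing across it. Over nuclei with a negative margin, equal UMIs, a margin of 1, of 2 to 3 and of 4 or more, Pex5l had 461, 577, 866, 1497 and 2668 CPM in CCI, and 601, 1190, 1956, 2422 and 2835 CPM in WT. Kcnab1 had 327, 427, 182, 136 and 54.0 CPM in CCI, and 334, 211, 109, 56.8 and 23.0 CPM in WT. Deeper nuclei reach larger margins, with a median of 11747 UMIs in CCI and 3524 UMIs in WT at 4 or more, against 6203 and 2343 UMIs at 1; the part of depth in the gradient was not tested.

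**Figure D2:**
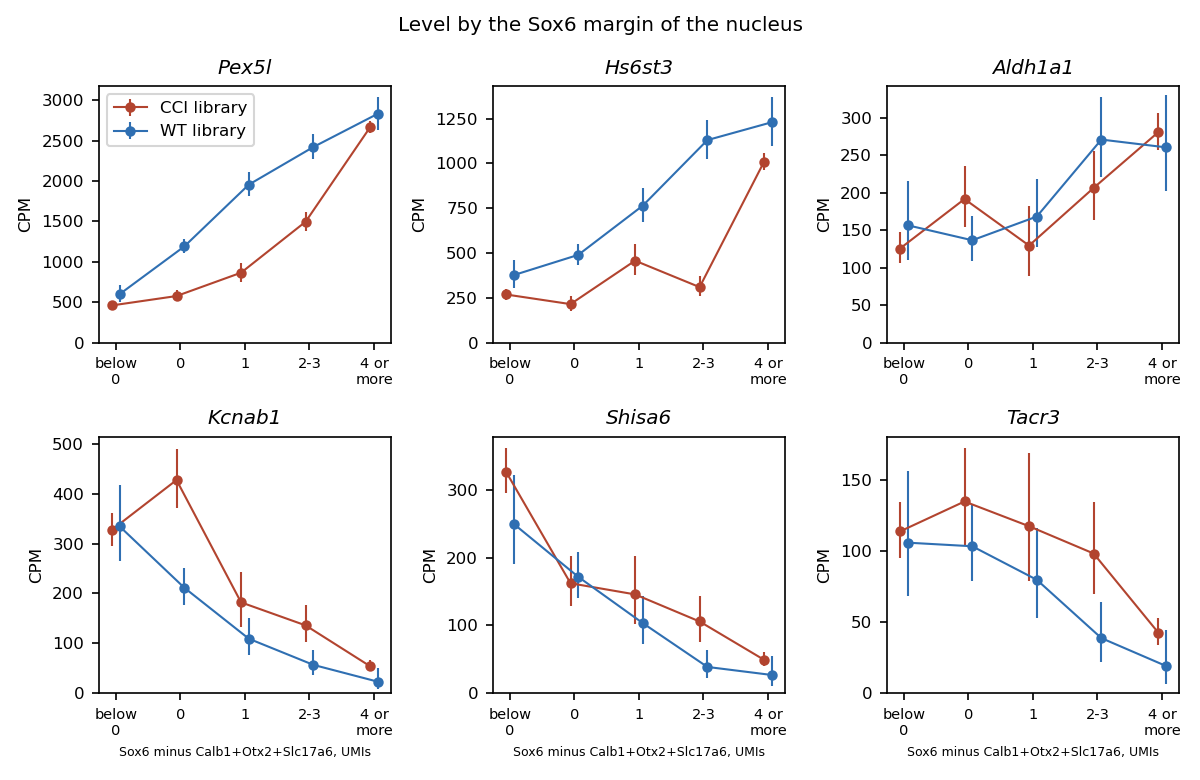
CPM (y axis, from 0) of 6 genes against the Sox6 margin in UMIs (x axis, from below 0 to 4 or more) in the CCI library (red) and the WT library (blue); points are CPM of summed UMIs and bars 95% Poisson intervals for counting error. In both libraries Pex5l climbs over all 5 steps and Kcnab1, Shisa6 and Tacr3 are lowest at 4 or more, while Hs6st3 in CCI has 457 CPM at a margin of 1 and 309.5 CPM at 2 to 3 before 1010 CPM at 4 or more.

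Genes known to mark ventral and Sox6 neurons of the mouse midbrain were higher in most cases. Of 14 tested, 10 were higher and 1 lower, with a median log2 fold change of 1.07, beside 0.00 over all genes tested. Within the libraries, the list's median log2 ratio was 1.43 in CCI and 0.63 in WT. This list and the others were chosen with earlier results of these data known, so their counts are no independent check. Over all genes tested, 3.96% were higher and 5.03% lower. Aldh1a1 (chromosome 19, 20492715 to 20643465, plus strand), which oxidises retinaldehyde and dopamine aldehydes, had 254 CPM in CCI Sox6-type and 144 CPM in other CCI nuclei, and 233 CPM in WT Sox6-type and 142 CPM in other WT nuclei (0.82 ± 0.12 SE). Its neighbour Aldh1a7 had 18.0 CPM in CCI Sox6-type and 1.80 CPM in other CCI nuclei, and 22.3 CPM in WT Sox6-type and 2.39 CPM in other WT nuclei; as a close copy of Aldh1a1, its counts are uncertain. The proteoglycan Vcan (1.44), the transcriptional regulators Lmo3 (1.26) and Satb1 (1.00), the growth factor Igf1 (1.30), the silent potassium channel subunit Kcns3 (1.28), the neurotrophic Ndnf (1.13), the collagen Col25a1 (1.29) and the protease inhibitor Serpine2 (0.81) were higher by these log2 fold changes. DESeq2 did not call Vcan, Lmo3, Igf1, Kcns3 or Ndnf. Tmem132d, placed in this list, was lower at -1.25 ± 0.16 (SE), with 48.8 CPM in CCI Sox6-type and 108 CPM in other CCI nuclei, and 30.4 CPM in WT Sox6-type and 96.8 CPM in other WT nuclei. Tafa1, Ntsr1 and Fgf1 did not pass the test, with -0.01, -0.15 and -0.18.

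Genes known from Calb1 and VTA neurons gave 5 lower and 1 higher of 11 tested, beside 5.03% and 3.96% over all genes, with a median of -0.42. DESeq2 called 2 lower, Otx2os1 among them, and 1 higher, and gave no adjusted p for 2 of the 11. The peptide gene Cck had 27.2 CPM in CCI Sox6-type and 72.8 CPM in other CCI nuclei, and 20.3 CPM in WT Sox6-type and 59.7 CPM in other WT nuclei (-1.41 ± 0.20 SE). Tacr3, the neurokinin B receptor, had 58.9 CPM in CCI Sox6-type and 120 CPM in other CCI nuclei, and 47.6 CPM in WT Sox6-type and 104 CPM in other WT nuclei. The calcium buffer Calb2 (-0.91), the GABA-synthesising enzyme Gad2 (-1.36) and Otx2os1 were the other lower members. Otx2os1 overlaps the rule gene Otx2, so its place among the 5 and in the median cannot be told apart from the rule. The 3 GABAergic markers summed to 22.8 CPM in CCI Sox6-type and 44.5 CPM in other CCI nuclei, and to 23.3 CPM in WT Sox6-type and 44.2 CPM in other WT nuclei; the part of GABAergic RNA in the Gad2 call was not tested. Gsg1l, an AMPA receptor auxiliary protein, was higher at 1.04 ± 0.13 (SE).

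Of 15 transcription factors of dopaminergic identity tested, 2 were higher and 2 lower by edgeR, beside 8.99% called over all genes, and DESeq2 called 0. Among the 4 were Pbx3 (0.47 ± 0.10 SE) on the higher side and Lmx1a (-0.88 ± 0.15 SE) and Ebf3 (-0.43 ± 0.11 SE) on the lower side. Lmx1a, which specifies midbrain progenitors, had 74.1 CPM in CCI Sox6-type and 132 CPM in other CCI nuclei, and 44.6 CPM in WT Sox6-type and 100 CPM in other WT nuclei. Nr4a2, En1, Lmx1b, Pitx3 and Foxa2 did not pass the test, with log2 fold changes of 0.20, -0.03, 0.21, 0.32 and -0.32.

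Of 14 dopamine handling genes tested, 4 were higher and 2 lower, beside 3.96% and 5.03% over all genes, with a median of -0.07. The autoreceptor and its channel were among the higher ones. Drd2, the dopamine autoreceptor, had 331 CPM in CCI Sox6-type and 212 CPM in other CCI nuclei, and 315 CPM in WT Sox6-type and 223 CPM in other WT nuclei (0.62 ± 0.11 SE, adjusted p = 8.01e-07). Kcnj6, the GIRK channel subunit that the autoreceptor opens, had 1240 CPM in CCI Sox6-type and 645 CPM in other CCI nuclei, and 1207 CPM in WT Sox6-type and 906 CPM in other WT nuclei (0.73 ± 0.10 SE). Rgs6, a regulator of G protein signalling, and the vesicle protein Sv2c were higher at 0.84 and 0.68. Gch1, which makes the cofactor of Th, and Rgs9 were lower at -0.79 and -1.25. The remaining 8 of the 14 tested did not pass, among them Dlk1 at -0.10 and Slc10a4 at -0.11. DESeq2 called 3 higher and 0 lower of the 14, and gave no adjusted p for 3.

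**Figure D3:**
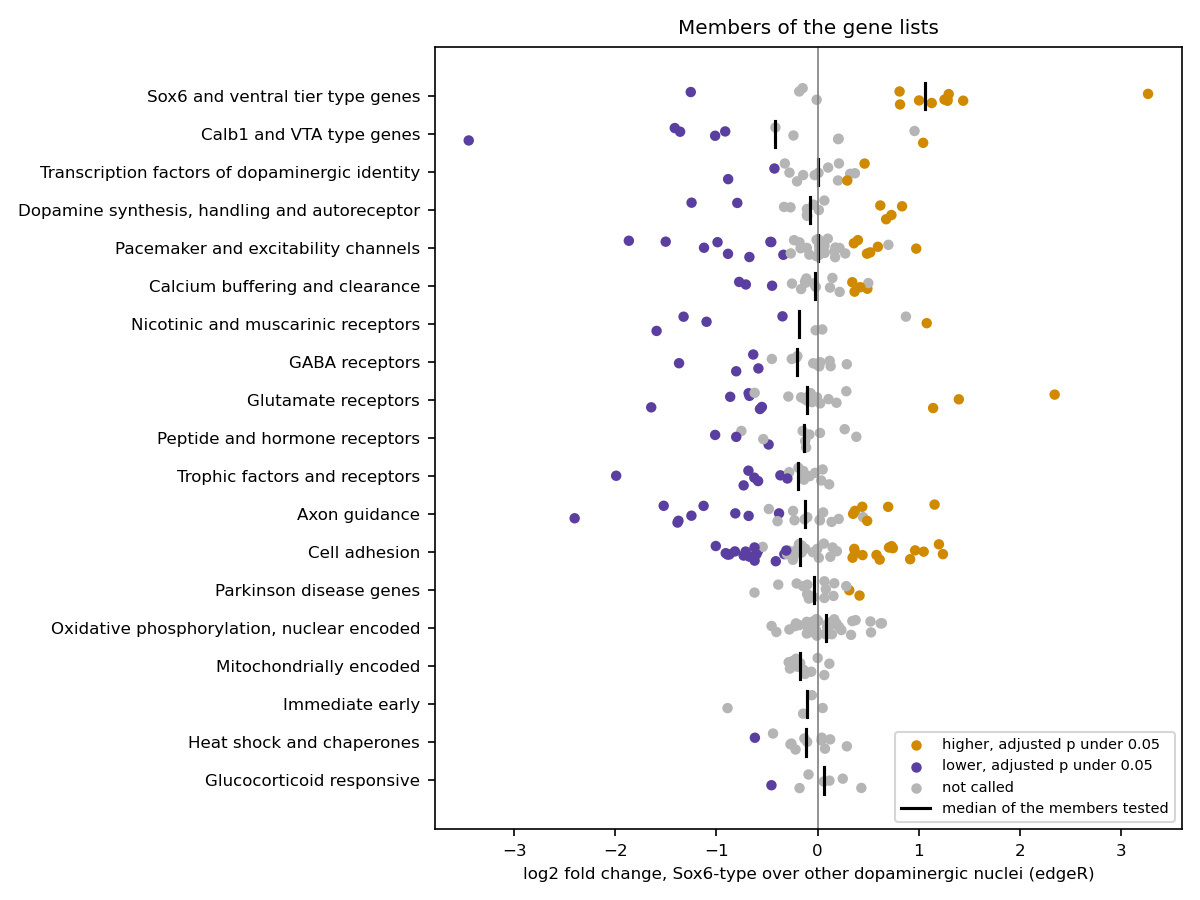
Log2 fold change of Sox6-type over other dopaminergic nuclei from edgeR (x axis) for the tested members of each gene list (rows); orange points are higher and purple points lower at an adjusted p under 0.05, grey points were not called, and the black bar is the list's median. The ventral tier list has 10 orange points and a median of 1.07. The lists of GABA receptors, peptide receptors and trophic factors have purple but no orange points, beside 3.96% higher over all genes tested.

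Ion channel genes were called on both sides. Of 37 pacemaker and excitability genes tested, 6 were higher and 9 lower, beside 3.96% and 5.03% over all genes, with a median of 0.01. Among those higher were the T-type calcium channel Cacna1g (0.52), the small-conductance channel Kcnn3 (0.40), the M-current subunit Kcnq3 (0.60), the interacting protein Kcnip3 (0.98) and Trpc6 (0.36). Lower were Kcnd2, the A-type potassium channel (-0.47), its interacting proteins Kcnip1 (-1.87) and Kcnip4 (-0.46), Kcnn2 (-0.99), Kcnq5 (-0.89), Kcnc2 (-0.67), Scn1a (-0.34), Trpc4 (-1.12) and Trpc5 (-1.50). DESeq2 called 1 higher and 5 lower. For the small-conductance channels, Kcnn3 had 500 CPM in CCI Sox6-type and 356 CPM in other CCI nuclei, and 461 CPM in WT Sox6-type and 403 CPM in other WT nuclei. Kcnn2 had 129 CPM in CCI Sox6-type and 278 CPM in other CCI nuclei, and 109 CPM in WT Sox6-type and 201 CPM in other WT nuclei. Kcnd3, the other A-type subunit, did not pass at 0.27 (adjusted p = 0.0667).

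Calcium clearance genes gave 4 higher and 3 lower of 18, beside 3.96% and 5.03% over all genes. The plasma membrane pump Atp2b2 (0.37), the store channels Itpr1 (0.49) and Ryr3 (0.34) and the mitochondrial uptake regulator Micu3 (0.42) were higher. The pump Atp2b4 (-0.77), the store channel Ryr2 (-0.71) and the mitochondrial uniporter Mcu (-0.45) were lower. DESeq2 called none of these 7.

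Transmitter receptor genes were called on both sides, beside 3.96% higher and 5.03% lower over all genes. In lists as short as these, none higher lies near the 3.96%. Of 23 glutamate receptor genes tested, 3 were higher and 6 lower by edgeR, and DESeq2 called 1 higher and 4 lower. Grin2c (2.35) and the kainate subunit Grik1 (1.40) were among those higher. Grin2a (-0.86), Grin3a (-0.57), Grik2 (-0.68), Grm7 (-0.55) and Grm8 (-1.65) were among those lower. Grin2a, which confers fast NMDA currents, had 702 CPM in CCI Sox6-type and 1177 CPM in other CCI nuclei, and 471 CPM in WT Sox6-type and 1010 CPM in other WT nuclei. Grin2b did not pass, at -0.11. Of 15 inhibitory receptor genes, none was higher by edgeR or DESeq2 (1 at an unadjusted p under 0.05) and 4 were lower, among them Gabrb2 (-0.58), Gabrg3 (-0.80) and the glycine receptor Glra2 (-1.37); DESeq2 called 1 of the 4. Of 8 acetylcholine receptor genes, the nicotinic subunit Chrna5 was higher (1.08, with 15.6 CPM in CCI Sox6-type and 8.42 CPM in other CCI nuclei, and 28.4 CPM in WT Sox6-type and 11.9 CPM in other WT nuclei). Chrna7 (-1.10), Chrnb3 (-0.35) and the muscarinic receptors Chrm2 (-1.32) and Chrm3 (-1.59) were lower. Of these 8 genes, DESeq2 called 0 higher and 1 lower, and gave no adjusted p for 2. Of 12 peptide and hormone receptor genes, the kappa opioid receptor Oprk1 (-0.48), the PACAP receptor Adcyap1r1 (-0.80) and Tacr3 (-1.01) were lower, and DESeq2 called 0 of these 3. None was higher by edgeR or DESeq2 (1 at an unadjusted p under 0.05).

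Trophic genes gave 7 lower of 17 tested, beside 5.03% over all genes, and DESeq2 called 1 of the 7. None was higher by edgeR or DESeq2, nor at an unadjusted p under 0.05, beside 3.96% over all genes by edgeR. In a list this short, none higher lies near that share. Sorcs3, a sorting receptor that binds neurotrophin receptors, had 78.9 CPM in CCI Sox6-type and 358 CPM in other CCI nuclei, and 56.7 CPM in WT Sox6-type and 180 CPM in other WT nuclei (-1.99 ± 0.13 SE, adjusted p = 1.14e-45). Its relative Sorcs1 (-0.68), the GDNF family receptors Gfra1 (-0.37) and Gfra2 (-0.73), and the neurotrophin Ntf3 (-0.59) with its receptor Ntrk3 (-0.63) were also lower. So was Fgf14 (-0.30), an intracellular protein that was placed in this list and counts among the 7. Sorcs2, named among the 15 higher genes, had 101 CPM in CCI Sox6-type and 36.1 CPM in other CCI nuclei, and 116 CPM in WT Sox6-type and 49.0 CPM in other WT nuclei.

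Axon guidance genes gave 6 higher and 9 lower of 27, beside 3.96% and 5.03% over all genes, and ephrin receptors lay on both sides. DESeq2 called 1 higher and 4 lower of the 27, and gave no adjusted p for 2. Epha4 had 276 CPM in CCI Sox6-type and 103 CPM in other CCI nuclei, and 296 CPM in WT Sox6-type and 177 CPM in other WT nuclei (1.16 ± 0.12 SE). Epha7 (0.70), Epha5 (0.49), Epha3 (0.44), Robo2 (0.35) and Sema6d (0.37) were also higher. Epha6 had 1178 CPM in CCI Sox6-type and 2209 CPM in other CCI nuclei, and 1099 CPM in WT Sox6-type and 1908 CPM in other WT nuclei (-0.81 ± 0.10 SE). Nrp2 (-2.40), Plxnc1 (-1.52), Ephb1 (-1.39), Nrp1 (-1.38), Sema6a (-1.25), Unc5d (-1.13), Slit1 (-0.68) and Plxna4 (-0.38) were lower. The Nrp1 call came from CCI alone, with a log2 ratio of -1.97 in CCI and 0.11 in WT. Ephb1 lost its call and had a log2 fold change of 0.04 when membership was set on thinned counts.

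Cell adhesion genes gave 14 higher and 15 lower of 48, beside 3.96% and 5.03% over all genes. DESeq2 called 7 higher and 4 lower of the 48. The contactins Cntn5 (1.24), Cntn4 (1.20) and Cntn6 (0.58) were higher and Cntn3 (-0.87) lower. The cadherins Cdh11 (1.05), Cdh8 (0.97), Cdh20 (0.92) and Cdh10 (0.36) were higher, and Cdh7 (-0.89), Cdh4 (-0.62) and Cdh12 (-0.59) lower. Cdh8 had 1435 CPM in CCI Sox6-type and 708 CPM in other CCI nuclei, and 1577 CPM in WT Sox6-type and 891 CPM in other WT nuclei. Opcml, an IgLON adhesion molecule, had 870 CPM in CCI Sox6-type and 1809 CPM in other CCI nuclei, and 818 CPM in WT Sox6-type and 1453 CPM in other WT nuclei (-0.91 ± 0.10 SE), whereas its relative Ntm was higher at 0.61.

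Counts of energy and stress genes stand beside the 8.99% called over all genes. Of 36 nuclear genes of oxidative phosphorylation and 13 mitochondrially encoded genes tested, edgeR and DESeq2 called 0 in either list, with medians of 0.08 and -0.17. At an unadjusted p under 0.05, edgeR had 4 higher and 1 lower of the nuclear genes and 1 lower of the mitochondrially encoded ones. Of 17 genes linked to Parkinson disease, Sncaip (0.42) and Plcxd3 (0.31) were higher and none was lower, and DESeq2 called neither. Of 12 heat shock genes, the chaperone Hspa5 was lower (-0.62), and of 7 glucocorticoid-responsive genes, Sgk1 was lower (-0.46); DESeq2 called neither. None of 4 immediate early genes passed by edgeR or DESeq2 (1 lower at an unadjusted p under 0.05), among them Homer1 at -0.06 and Bdnf at 0.05.

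A further split within the Sox6-type nuclei was made by Aldh1a1, chosen after its values were seen, and is given without a test. An Aldh1a1 UMI was present in 52.1% of 215 CCI and 34.0% of 341 WT Sox6-type nuclei. After thinning to 1000 UMIs the shares were 18.1% of 215 in CCI and 17.3% of 335 in WT. In oligodendrocyte nuclei, taken as background, the thinned counts were 131 of 2620 nuclei in CCI and 61 of 691 in WT. Over all 2689 CCI and 3807 WT oligodendrocyte nuclei, those too shallow to thin included, the median depth was 2027 and 736 UMIs. In the other dopaminergic nuclei they were 19 of 182 in CCI and 40 of 332 in WT.

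In the Sox6-type nuclei of each library, 5099 genes had at least 30 UMIs. Genes barred from naming, such as rule, mitochondrial, ribosomal and unnamed ones, were then set aside with Aldh1a1. Of the rest, whose number is not given, 10 were at least 2-fold higher and 14 at least 2-fold lower in both libraries in nuclei with an Aldh1a1 UMI. Zfp804b, a zinc finger gene, had 520 CPM with and 99.7 CPM without Aldh1a1 in CCI, and 727 CPM with and 193 CPM without in WT. Lmo3 had 326 CPM with and 82.8 CPM without in CCI, and 436 CPM with and 138 CPM without in WT. Tenm2, a teneurin adhesion protein, had 5006 CPM with and 1681 CPM without in CCI, and 4621 CPM with and 2114 CPM without in WT. Anxa1, known in mice to mark a subset of Aldh1a1 neurons, was too sparse for the limit of 30 UMIs in each library. It had 45 UMIs with and 1 without Aldh1a1 in CCI and 9 with and 1 without in WT.

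On the lower side, Necab1, a calcium-binding protein, had 21.8 CPM with and 114 CPM without Aldh1a1 in CCI, and 11.6 CPM with and 87.0 CPM without in WT. The transcription factor Foxp2 had 240 CPM with and 535 CPM without in CCI, and 192 CPM with and 502 CPM without in WT. Tacr3 had 26.2 CPM with and 98.8 CPM without in CCI, and 20.3 CPM with and 62.2 CPM without in WT. Slc6a3 and Drd2 had log2 ratios of 0.01 and -0.05 in CCI and -0.09 and -0.03 in WT for this split, all with intervals that include 0. Nuclei with Aldh1a1 had medians of 11512 UMIs in CCI and 2897 UMIs in WT, against 9996 and 2653 UMIs without.

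**Figure D4:**
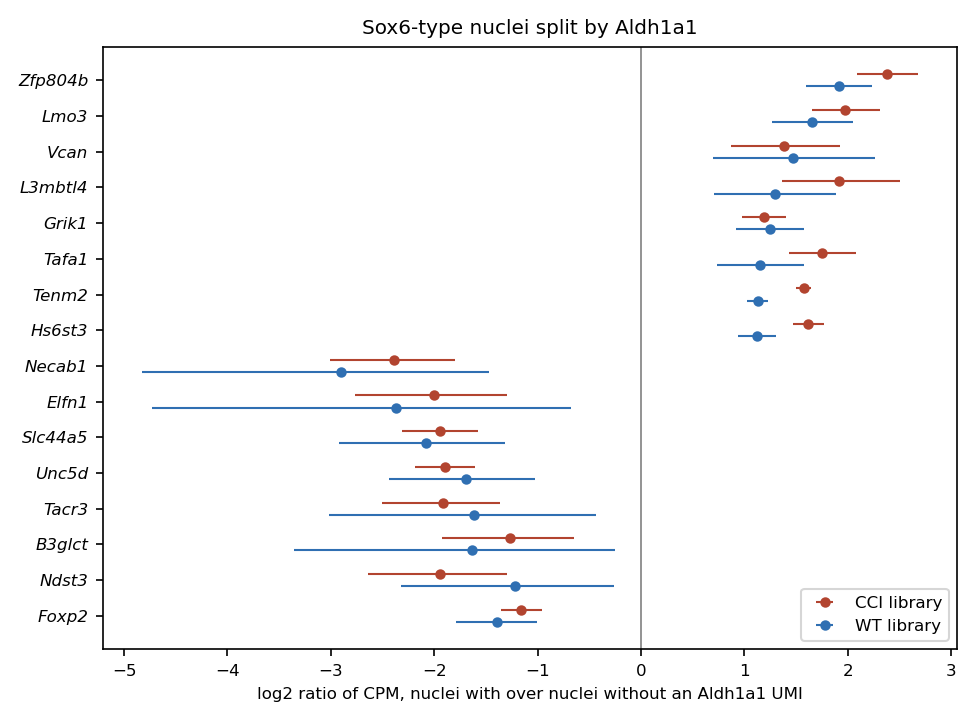
Log2 ratio of CPM in Sox6-type nuclei with over those without an Aldh1a1 UMI (x axis) for the 8 genes highest and the 8 lowest by the smaller of both libraries' ratios (rows), in CCI (red) and WT (blue); bars are 95% exact conditional intervals for counting error. Zfp804b has the highest rank, with 2.38 in CCI and 1.91 in WT, and Necab1 the lowest, with -2.38 in CCI and -2.90 in WT.

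Between CCI and WT, the Sox6-type nuclei were described without a test. Of 8009 genes with at least 50 UMIs, 127 (1.59%) were at least 2-fold higher and 57 (0.712%) at least 2-fold lower in CCI, 2.3% in either direction. After thinning every nucleus to 1000 UMIs, 6 were higher and 21 lower of 2051 genes measured (0.293% and 1.02%). Among lists of neuronal genes, 0 of 15 ventral tier genes, 0 of 11 dopamine handling genes, 0 of 37 channel genes, 0 of 23 glutamate receptor genes and 0 of 15 inhibitory receptor genes passed 2-fold. Drd2 had 331 CPM in CCI and 315 CPM in WT, and Aldh1a1 254 CPM in CCI and 233 CPM in WT, both with log2 intervals that include 0. Of 3 immediate early genes measured, 0 passed 2-fold. In lists as short as these, 0 lies near the 2.3% over all genes. Of 6 glucocorticoid-responsive genes 1 was at least 2-fold lower in CCI, and of 30 nuclear oxidative phosphorylation genes 1 was at least 2-fold higher.

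The genes named as higher in CCI included the secreted protein Nell1 (114 CPM in CCI and 48.6 CPM in WT), the calmodulin kinase Camk1 (55.3 CPM in CCI and 23.3 CPM in WT), the nuclear factor Tox (134 CPM in CCI and 67.8 CPM in WT), Susd1 (37.2 CPM in CCI and 14.2 CPM in WT) and the phospholipase Plcg2 (44.4 CPM in CCI and 18.2 CPM in WT). Pcsk2, which cleaves prohormones, had 411 CPM in CCI and 244 CPM in WT, a log2 ratio of 0.75 (0.55 to 0.96). The splicing factor Srsf7, the apoptosis inhibitor Faim2, the sugar kinase Nagk and Izumo4 completed the 10, with log2 ratios of 0.89 to 1.17. Of the 10, 3 were among the genes lower in Sox6-type than in other dopaminergic nuclei (Nell1, Tox and Pcsk2) and 0 among those higher. With membership set on thinned counts, Nell1 and Tox turned round, to -0.36 and -0.38. Of the 10, 9 were also above 0 in the other dopaminergic nuclei, 6 of them with an interval that excludes 0, which leaves Susd1 at -0.24 (-1.18 to 0.75). After thinning to 1000 UMIs, Susd1 had 0.22, Faim2 0.38 and Tox 0.52 in Sox6-type nuclei. With doublets left out, Nell1 had 0.72.

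The genes named as lower in CCI were led by genes abundant in oligodendrocytes. St18 had 35.6 CPM in CCI and 128 CPM in WT Sox6-type nuclei, and 2836 CPM in CCI and 2971 CPM in WT oligodendrocyte nuclei. Prr5l had 34.0 CPM in CCI and 93.2 CPM in WT Sox6-type nuclei, and 3143 CPM in CCI and 2645 CPM in WT oligodendrocyte nuclei. The RNA-binding protein Qk, at 336 CPM in CCI and 627 CPM in WT Sox6-type nuclei, and the channel-like Ano4, at 65.3 CPM in CCI and 131 CPM in WT, were likewise higher in oligodendrocyte nuclei of both libraries. The 7 oligodendrocyte markers had a median log2 ratio of -1.51, with 5 at least 2-fold lower in CCI. The part of oligodendrocyte RNA in these genes was not tested; in nuclei without a UMI of Pdgfra, Cspg4, Olig1, Olig2, Sox10 or Mog, St18 had a log2 ratio of -2.54, against -1.84 in all Sox6-type nuclei.

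Htr2c, a serotonin receptor, differed in sign between the classes. It had 66.1 CPM in CCI and 130 CPM in WT Sox6-type nuclei, a log2 ratio of -0.97 (-1.31 to -0.63), but 189 CPM in CCI and 143 CPM in WT other dopaminergic nuclei, a log2 ratio of 0.40 (0.09 to 0.71). Among the 185 other CCI nuclei, the most Htr2c UMIs in 1 nucleus were 36, and the part of that nucleus in the ratio was not tested. After thinning to 1000 UMIs, the log2 ratio of Htr2c in Sox6-type nuclei was -0.52. With 1 library a group this difference between classes was not tested. Ror2, a Wnt receptor, had 48.0 CPM in CCI and 92.1 CPM in WT Sox6-type nuclei, and Atxn2l, an RNA-binding protein, had 70.1 CPM in CCI and 129 CPM in WT. Tmsb4x, Aatk and Srrm4os, whose exons overlap Srrm4 on the other strand, were the remaining lower genes, at -1.04, -0.87 and -1.07. With membership set on thinned counts, Tmsb4x, Aatk and Srrm4os had -0.23, -0.36 and -0.39. After thinning to 1000 UMIs, Atxn2l had a log2 ratio of -0.05. Mitochondrially encoded genes had a median of -1.08, with 7 of 13 at least 2-fold lower in CCI, among them mt-Atp6 at 602 CPM in CCI and 1421 CPM in WT. This was not particular to Sox6-type nuclei. In the other dopaminergic nuclei the 13 genes summed to 2675 CPM in CCI and 5505 CPM in WT. Over all barcodes with at least 500 UMIs, the median mitochondrial share was 0.140% in CCI and 0.281% in WT. The cause was not tested.

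**Figure D5:**
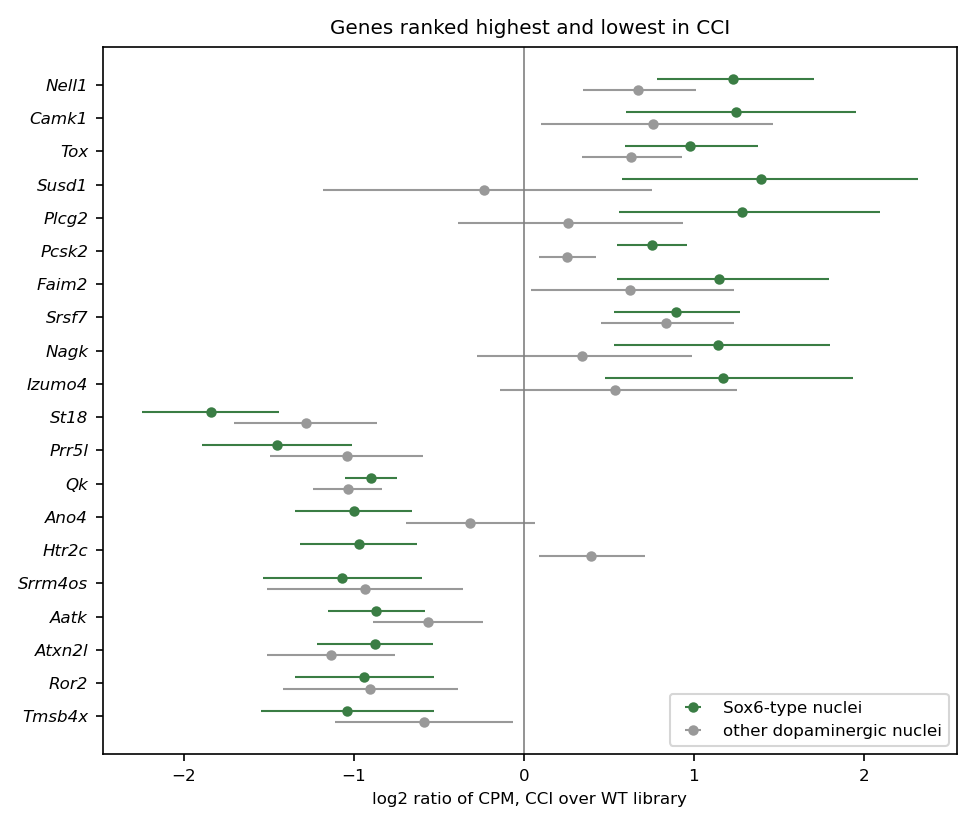
Log2 ratio of CPM in CCI over WT (x axis) for the 10 genes named as higher and the 10 named as lower in Sox6-type nuclei (rows), in Sox6-type nuclei (green) and in other dopaminergic nuclei (grey); bars are 95% exact conditional intervals for counting error from 1 library per group. Htr2c lies at -0.97 in Sox6-type and 0.40 in other dopaminergic nuclei, and the other 9 lower genes are below 0 in both.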

How the data were processed

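The 2 deposited matrices hold raw UMI counts per gene and barcode, made with Cell Ranger 7.1.0, per the file headers. Per the submitters' processing notes, Cell Ranger, Seurat and the mm10 build were used; whether introns or strand were counted is not given in the sources used here. The CCI library held 13736 barcodes and 68376220 UMIs, and the WT library 14114 barcodes and 18581333 UMIs, of which 690 barcodes had under 500 UMIs and were left out. Positions and overlapping exons came from GENCODE vM21, which held 99.8% of 32285 gene identifiers.

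UMIs were summed over nuclei of each class and library. Genes with at least 20 UMIs in the dopaminergic nuclei of each library were tested with edgeR 4.0.16 (R 4.3.3), TMM normalization and the library as a block, because each library gives both classes. The 14 genes of the rule were not tested. On simulated counts for this comparison over 8983 genes, 22% of genes changed 1.5-fold, 80% changed 2-fold and 100% changed 3- or 4-fold were recovered. Of the unchanged genes, 0.159% were called, which is not a share of the calls. The changed genes were drawn from those with at least 100 UMIs, and all genes had 1 fixed spread. Real spread between libraries can differ, so the simulation does not show how many real calls are false. Intervals are exact at 95% (SciPy 1.17.1). Doublets were scored with Scrublet in Scanpy 1.11.5 at an expected 10%. CCI and WT were compared without a test.

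Named as higher or lower in Sox6-type nuclei were the 15 called genes each way with the largest smaller ratio of both libraries. They needed the same sign in both libraries and at least 100 UMIs, and rule, mitochondrial, ribosomal and unnamed genes were left out. For CCI over WT the 10 each way with the interval bound farthest from 0 were named, without markers of other cells. From each list the called genes and the 3 most abundant others could be named. Oligodendrocyte nuclei were those with at least 1% of UMIs from a sum of myelin genes that includes Mbp, Mog, Mag and Mobp, and that failed the neuronal limit. Alternatives were doublet removal, depth and thinning, other limits, other normalization, DESeq2 1.42.0, no block, and leaving out each library. Some genes of the lists are not reported here. Members and lists were chosen with earlier results of these data known.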

Additional observations from a re-analysis of the deposited data

Results flagged for a closer look

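Nrp1, a semaphorin and VEGF co-receptor, had log2 ratios on opposite sides of 0 in the 2 libraries, with a WT interval that includes 0. Its log2 ratio of Sox6-type over other dopaminergic nuclei was -1.97 in CCI (-2.69 to -1.28) and 0.11 in WT (-1.14 to 1.39). It rested on 25 UMIs in Sox6-type and 65 in other CCI nuclei, and on 14 in Sox6-type and 11 in other WT nuclei. The difference between the libraries was not tested.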

How the results depend on the processing

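Counts of genes higher and lower in Sox6-type nuclei, 356 and 452 as reported, were 45 and 59 after thinning to 1000 UMIs, 56 and 86 with membership set on thinned counts (added after seeing the data), 60 and 85 by DESeq2, and 103 and 162 without the replicate block that pairs both classes of a library. Without normalization factors 232 were higher. With nuclei lacking all 4 genes left out (also added after seeing the data), 338 were higher and 416 lower. Genes at least 2-fold higher and lower in CCI, 127 and 57, were 6 and 21 after thinning, 14 and 25 with membership on thinned counts, 475 and 201 at a minimum of 20 UMIs, and 1 and 8 at 200 UMIs. The Sox6-type share, 53.8% in CCI and 48.9% in WT, was 62.5% and 76.3% without nuclei lacking all 4 genes, 26.4% and 29.5% on thinned counts, 46.5% and 29.6% at a margin of 2 UMIs, and 64.8% and 79.3% of nuclei whose 2 sides differed; at 5 dopaminergic UMIs WT had 54.1%. With membership on thinned counts Ephb1 had 0.043, and Nell1 and Tox had -0.36 and -0.38. Of the 20 genes named for CCI over WT, 10 then stayed within their first counting interval, 8 moved out of it and 2 changed sign. After thinning to 1000 UMIs, 14 of the 20 stayed within it and 6 moved out. Moves went both ways, such as Ano4 to -1.42 after thinning. Leaving out a library put Nrp1 between -1.97 and 0.11. Of the 30 named genes, 23 passed by DESeq2, 29 without the block, 12 of 17 testable after thinning, and 15 with membership on thinned counts, where 10 did not. Fewer UMIs enter the thinned fits; the other causes were not tested. At most 5% mitochondrial UMIs removed no Sox6-type nucleus. Counts of calls without a library could not be given, since 1 library leaves no residual degrees of freedom. The shallow WT nuclei limit every share and sparse gene.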

Other observations

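Most serotonergic UMIs of the other CCI dopaminergic nuclei came from 1 nucleus. The 5 serotonergic and noradrenergic markers summed to 2.80 CPM in Sox6-type and 78.2 CPM in other CCI dopaminergic nuclei, and to 0 UMIs in Sox6-type and 3.58 CPM in other WT dopaminergic nuclei. Tph2, the serotonin-synthesising enzyme, was detected in 5 of 215 Sox6-type and 3 of 185 other CCI nuclei, and 1 of the other nuclei held 105 Tph2 UMIs. Fev was at 0 in all 4 sums. Glial glutamate transporter Slc1a2 was lower in Sox6-type nuclei, with 177 CPM in CCI Sox6-type and 261 CPM in other CCI nuclei, and 130 CPM in WT Sox6-type and 226 CPM in other WT nuclei, whereas Slc1a3, the other astrocyte transporter, had 26.4 CPM in CCI Sox6-type and 19.8 CPM in other CCI nuclei, and 18.2 CPM in WT Sox6-type and 21.5 CPM in other WT nuclei.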
